A study of Mus musculus with 10 samples.

Results

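The genes described here are 37 genes for the subunits of microtubules and for neuronal proteins that bind, build or regulate them, out of 53379 genes with a read count. They were chosen by gene symbol, with earlier results of these data known: every mouse gene with a Tuba, Tubb or Tubg symbol followed by a number, which gave 7 α-, 8 β- and 2 γ-tubulins, together with 3 members of the doublecortin family, 6 structural microtubule-associated proteins (MAPs), 4 stathmins, Nde1 and Ndel1, and the 5 tubulin folding cofactors Tbca to Tbce. RNA was sequenced from sorted cells of embryonic day (E) 16 mouse neocortex to ask how expression changes when Cdkn1c, which encodes the cyclin-dependent kinase inhibitor p57KIP2, is deleted. The 7 control libraries came from MADM-7 GT/TG;Emx1 Cre/+ embryos (control MADM-7) and the 3 cKO libraries from cKO-Cdkn1c-MADM-7 embryos, which had the same MADM-7 GT/TG and Emx1 Cre/+ alleles and a Cdkn1c-flox allele on each of the homologues, with 1 embryo and 400 cells per library. Both groups carried the MADM-7 cassettes, which switch on green and red fluorescent proteins after recombination between the chromosome 7 homologues, and Emx1-Cre, which is active in the progenitors of cortical excitatory neurons and glia but not in the progenitors of GABAergic interneurons. All labelled cells of an embryo, green, red or both, were sorted together, so that a library mixes progenitors and neurons, and the mice were of a mixed C57BL/6J, CD1 background, entered as CD1 for each sample. All 10 libraries were from E16, and no drug treatment is described for them.

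Microtubules are hollow polymers of α- and β-tubulin heterodimers, nucleated from rings that contain γ-tubulin. New tubulin is folded and paired by the cofactors TBCA to TBCE, stathmins bind free dimers and favour disassembly, and MAPs and doublecortins bind along the lattice and stabilise it. In the developing cortex these proteins build the spindle of dividing progenitors, the leading process of migrating neurons and the axon, and mutations in TUBA1A, TUBB2B, TUBB3, DCX and NDE1 cause malformations of the human cortex.

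The tubulin isotypes are encoded by separate genes whose coding sequences are alike and have a more variable 3′ end, which encodes the acidic tail exposed on the microtubule surface. The last 60 coding bases, stop codon included, are shown for the 6 β-tubulins tested, as an example of how these isotypes differ. Capitals mark bases that differ from Tubb5, or that face a gap there, in an alignment of the whole coding sequences.
Tubb5: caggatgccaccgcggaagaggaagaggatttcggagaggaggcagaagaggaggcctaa
Tubb3: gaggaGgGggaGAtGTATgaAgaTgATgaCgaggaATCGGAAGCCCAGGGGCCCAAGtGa
Tubb2a: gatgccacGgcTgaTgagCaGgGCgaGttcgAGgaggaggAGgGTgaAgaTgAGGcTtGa
Tubb2b: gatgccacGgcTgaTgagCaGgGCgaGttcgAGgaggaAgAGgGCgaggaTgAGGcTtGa
Tubb4a: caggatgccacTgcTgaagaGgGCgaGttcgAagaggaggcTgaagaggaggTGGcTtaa
Tubb4b: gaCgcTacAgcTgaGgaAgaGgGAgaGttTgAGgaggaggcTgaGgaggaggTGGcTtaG

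These sequences were taken from the GENCODE M21 transcripts of GRCm38, 5′ to 3′ on the coding strand. They lie at chr17:35834982-35835041 (minus) for Tubb5, chr8:123421623-123421682 (plus) for Tubb3, chr13:34074468-34074527 (minus) for Tubb2a, chr13:34127471-34127530 (minus) for Tubb2b, chr17:57080690-57080749 (minus) for Tubb4a and chr2:25222308-25222367 (minus) for Tubb4b, each inside 1 exon. Over the whole coding sequence Tuba1a and Tuba1b shared 98.3% of aligned bases and Tubb2a and Tubb2b shared 96.5%. Tubb3, which encodes the neuronal class III β-tubulin, differed from Tubb5 or faced a gap there at 36 of the 60 bases. It shared 82.0% of the aligned coding bases with Tubb5, a measure that leaves gaps out.

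Only reads with a single alignment had been kept by the authors, so reads from stretches shared between genes were left out of the counts. Of all distinct 50-base words in the annotated transcripts of a gene, 75.5% also occurred in another gene for Tuba1a, 75.1% for Tuba1b, 52.7% for Tuba1c, 49.6% for Tubb2a, 41.3% for Tubb4b and 36.9% for Tubb2b. For Tubb4b most of these words were shared with its processed pseudogene, Tubb4b-ps1 (32.4% of its words), which had at most 5 reads in any library. Tuba4a shared 35.4%, nearly all of it with the overlapping gene Stk16, whose reads in the overlap were counted for neither gene. By contrast, 0 words of Tubb3 and 0.0892% of those of Tubb5 were shared, and 17 of the 32 members tested shared under 1%. Counts of the genes in the first group therefore cover only part of their transcripts, in both genotypes, and their levels are uncertain to that extent.

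**Figure D1:**
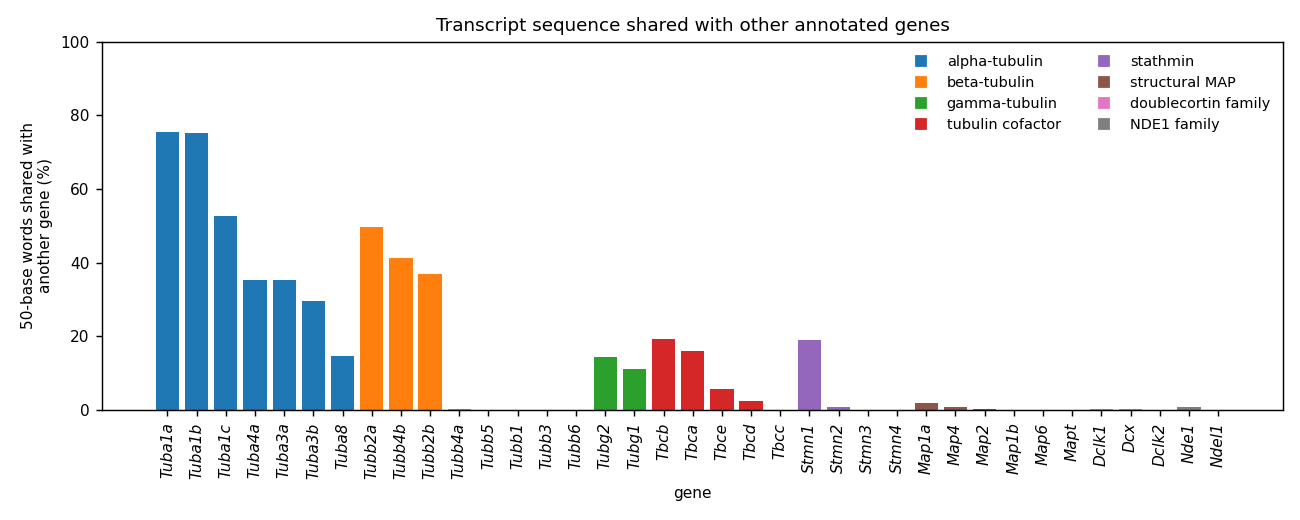
Percentage of the distinct 50-base words of each gene's annotated transcripts (y axis) that also occur in the transcripts of another annotated gene, for the 37 genes (x axis), coloured by role. Tuba1a and Tuba1b stand at 75.5% and 75.1%, and Tubb3, Stmn3, Stmn4, Map1b and Mapt at 0.

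Between 1738220 and 3362487 reads per library were counted on genes. Cdkn1c itself had 32, 10 and 18 reads in cKO and 116 to 369 per control library, with a log2 fold change of -3.66 (SE, the standard error, 0.31; edgeR adjusted p = 3.68e-06), so the libraries matched their labels. Libraries fell apart on the share of uniquely aligned reads that lay outside genes. It was 5.47% to 8.64% in cKO replicate 3 and control replicates 1, 2, 6 and 7, and 12.8% to 16.7% in cKO replicates 1 and 2 and control replicates 3, 4 and 5. Among marker genes, the summed level of 13 projection neuron markers was 2916 to 3017 CPM in cKO and 4270 to 5470 CPM in controls, with 4 of them lower in cKO by the test and 0 higher. Radial glial and intermediate progenitor markers, with 0 calls each, summed to 1372 to 2559 and 494 to 649 CPM in cKO against 1516 to 2566 and 398 to 870 CPM in controls. The 5 Cajal-Retzius cell markers, all higher by the test, summed to 534 to 643 CPM against 16.3 to 161 CPM. The 7 GABAergic interneuron markers summed to 42.5 to 146 CPM against 17.3 to 114 CPM, and all had positive log2 fold changes (median 1.08), with 1 of them, Dlx2, higher by the test, whereas markers of endothelial cells and pericytes and of microglia summed to at most 18.9 and 23.3 CPM in any library. Of 6 immediate early genes 3 were higher in cKO by the test (Fos, Fosb and Egr1), and the 6 summed to 2243, 956 and 1359 CPM in cKO and 526 to 1018 CPM in controls. CPM values are reads counted on a gene, scaled to a common library total (counts per 1e6 reads, after TMM normalisation).

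Of the 37 genes, 32 averaged 10 reads or more per library and were tested. In controls the members together took up 3.42% to 4.49% of all reads on genes, with a median of 3.63%, and in the cKO libraries 2.83% to 3.65%, so the ranges overlapped. Compared per kilobase of exonic length, Tuba1a, the α-tubulin of migrating neurons and growing axons, was the most abundant member in controls, at 6502 ± 854 CPM per kilobase (SD, n = 7). Tubb3 (2427 ± 425) and Tubb5 (2298 ± 360) followed and lay within each other's spread, well below Tuba1a. Stmn3 stood at 1030 ± 181 and Stmn1 at 794 ± 79.4 CPM per kilobase, also with overlapping SDs. Below a gap came Stmn2 (381 ± 44.8), Tubb2a (335 ± 95.2), Tbcb (317 ± 24.3), Tubb2b (298 ± 88.5), Tbca (288 ± 35.2), Tubb4a (241 ± 42.9), Map1b (182 ± 29.0), Mapt (154 ± 17.5), Tuba1b (132 ± 21.3) and Tubb4b (115 ± 18.5), each of them within the summed SDs of its neighbour in this order. At the low end were Tbcd, Tuba4a, Map4 and Map1a, with 6.60, 6.32, 6.12 and 1.37 CPM per kilobase. The length was not reduced for shared sequence, whose reads were left out. Members with much of it, such as Tuba1b, Tubb2a, Tubb2b and Tubb4b, may therefore rank too low, which their SDs do not cover.

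**Figure D2:**
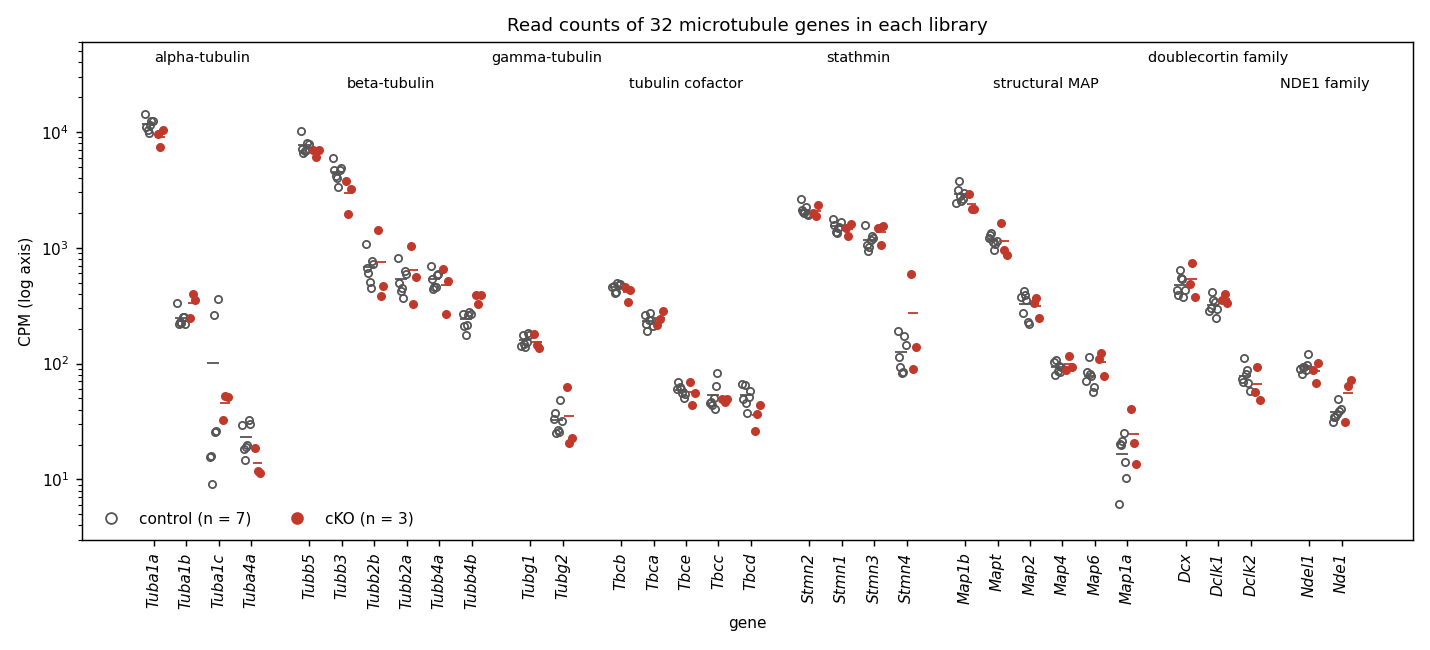
CPM on a log axis (y axis) of the 32 genes tested (x axis), ordered by role and by control level. Open grey circles are the 7 control and filled red circles the 3 cKO libraries, and short lines are group means; the 2 controls far above the rest in Tuba1c and the single cKO library far above the rest in Stmn4 are visible.

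The other 5 genes had too few reads to be tested. Tuba3a, Tuba3b and Tubb1 each had 1 read in all 10 libraries together, and Tuba8 had 3. Tubb6, a β-tubulin that is widely expressed outside neurons, had a mean of 9.7 reads and just missed the minimum, with 41, 12 and 19 reads in cKO replicates 1 to 3 and 1, 1, 2, 2, 0, 3 and 16 in control replicates 1 to 7. Its cKO values, 13.8, 4.73 and 8.06 CPM, were above those of 6 controls (0 to 1.08 CPM), while control replicate 7, at 5.69 CPM, lay between them.

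At an adjusted p under 0.05, 1 of the 32 members tested was higher in cKO and 0 were lower. Of all 11551 genes tested 3.15% passed, 2.27% higher and 0.883% lower. An unadjusted p under 0.05 was found for 8 members (4 higher, 4 lower), or 25%, against 16.4% of all genes (9.25% higher, 7.11% lower). The median log2 fold change was -0.04 over the members and 0.01 over all genes, and 14 members had a positive and 18 a negative value. The 95% confidence interval of the log2 fold change lay within -1 to 1 for 26 of the 32 members and within -0.5 to 0.5 for 11, against 63.1% and 13.2% of all genes.

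The member that passed was Tubb4b (ENSMUSG00000036752.4, chromosome 2, 25222160 to 25224702), which encodes a β-tubulin found in most tissues and in cilia. It had 394, 327 and 393 CPM in the cKO libraries, and 178 CPM in the lowest, 263 in the median and 277 in the highest control library. All 3 cKO libraries lay above every control, which was the case for 3.32% of all genes tested and for no other member tested. Members with all 3 cKO libraries below every control numbered 0, against 2.68% of all genes. The log2 fold change was 0.63 (SE 0.15, 95% confidence interval 0.32 to 0.95, edgeR adjusted p = 0.0251), or 1.55-fold. Without cKO replicate 1 the adjusted p of Tubb4b was 0.0715, without cKO replicate 3 it was 0.0900, and without control replicate 2 or 4 it was 0.0611 or 0.0554, with a log2 fold change of at least 0.58 each time, so the call rested on these libraries. Among the libraries with the smaller and the larger share of reads outside genes, Tubb4b was higher in cKO by 0.63 and 0.73 on the log2(CPM + 1) scale.

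Tubb3 (ENSMUSG00000062380.4, chromosome 8, 123411424 to 123422015), the β-tubulin commonly used to label young neurons, showed the smallest p among the members with a lower mean in cKO. Its level was 3797, 1962 and 3218 CPM in the cKO libraries and ran from 3369 to 5915 CPM in controls, with a median of 4692. Only cKO replicate 1 reached the control range, where it lay above the lowest library, control replicate 5. The log2 fold change was -0.60 (SE 0.18, 95% confidence interval -0.99 to -0.21) and did not pass (edgeR adjusted p = 0.0930). Without cKO replicate 1 the value was -0.81 and the adjusted p 0.0335, and without cKO replicate 2 they were -0.38 and 0.244. Of the 13 projection neuron markers, 4 fell in cKO, among them Neurod2, Neurod6 and Cux2, with log2 fold changes of -0.75, -0.98 and -1.07 (edgeR adjusted p = 0.00565, 0.000471 and 0.0257). The other 9 did not pass, and 3 of them had positive values, up to 0.45 in Slc17a6. Of all 13, 10 had negative values, down to -1.96. An unadjusted edgeR p under 0.05 was found for 8, all lower, against 7.11% of all genes. The part of these markers in the level of Tubb3 was not tested. In bulk RNA from sorted cells, fewer cells of a type and less RNA per cell cannot be told apart.

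The other β-tubulins overlapped between the genotypes. Tubb5, the β-tubulin of dividing progenitors as well as neurons, had 7027, 6047 and 6962 CPM in cKO and 6541 to 10087 CPM (median 7085) in controls, where replicate 1 stood apart at the top, a log2 fold change of -0.19 (95% confidence interval -0.47 to 0.08). Tubb2a and Tubb2b, which are neuronal and lie close together on chromosome 13, had 1026, 324 and 564 CPM and 1414, 380 and 471 CPM in cKO, where replicate 1 stood highest of all 10 libraries for both. Their controls ran from 369 to 816 and from 451 to 1066 CPM, and the log2 fold changes were 0.25 and 0.15 (edgeR adjusted p = 0.721 and 0.877). Both turned without cKO replicate 1, to -0.29 and -0.69, and stood at 0.55 and 0.45 without cKO replicate 2. Tubb4a had a log2 fold change of -0.16 (95% confidence interval -0.60 to 0.29), which turned to 0.12 without cKO replicate 2.

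Among the α-tubulins, Tuba1a (ENSMUSG00000072235.5, chromosome 15, 98949837 to 98953703) and its near copy Tuba1b (ENSMUSG00000023004.8, chromosome 15, 98931425 to 98934565) had fold changes of opposite sign, and neither passed. Tuba1a had 9522, 7357 and 10444 CPM in cKO and 9856 to 14393 CPM (median 11492) in controls, and cKO replicate 3 alone lay inside the control range. Its log2 fold change was -0.36 (SE 0.13, unadjusted p = 0.0149, edgeR adjusted p = 0.170). Tuba1b, the α-tubulin of most dividing cells, had 248, 402 and 355 CPM in cKO and 221 to 333 CPM (median 229) in controls, the highest being replicate 1, which stood apart. Replicates 2 and 3 of the cKO lay above all controls and replicate 1 inside their range, and the log2 fold change was 0.43 (SE 0.16, unadjusted p = 0.0175, edgeR adjusted p = 0.183). Without cKO replicate 1 Tuba1b passed, at 0.61 (adjusted p = 0.0476), and without cKO replicate 2 it stood at 0.26 (adjusted p = 0.478).

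Tuba4a (chromosome 1, 75214228 to 75219865) had 18.6, 11.8 and 11.5 CPM in cKO and 14.7 to 32.4 CPM (median 19.8) in controls, a log2 fold change of -0.72 (SE 0.33, unadjusted p = 0.0412, edgeR adjusted p = 0.278). Its 2 lowest libraries were cKO replicates, and the third lay inside the control range. Among the libraries with the smaller and the larger share of reads outside genes, Tuba4a differed by -1.16 and -0.24 on the log2(CPM + 1) scale. Tuba1c had 32.7, 52.4 and 51.3 CPM in cKO, but its controls fell into separate levels: 260 and 357 CPM in replicates 4 and 7 and 9.12 to 26.3 CPM in the other 5. The cKO values lay between these levels. The resulting log2 fold change of -1.20 had a standard error of 0.94 and a 95% confidence interval of -3.17 to 0.78, so the data do not fix its direction, and limma-voom gave 0.14.

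**Figure D3:**
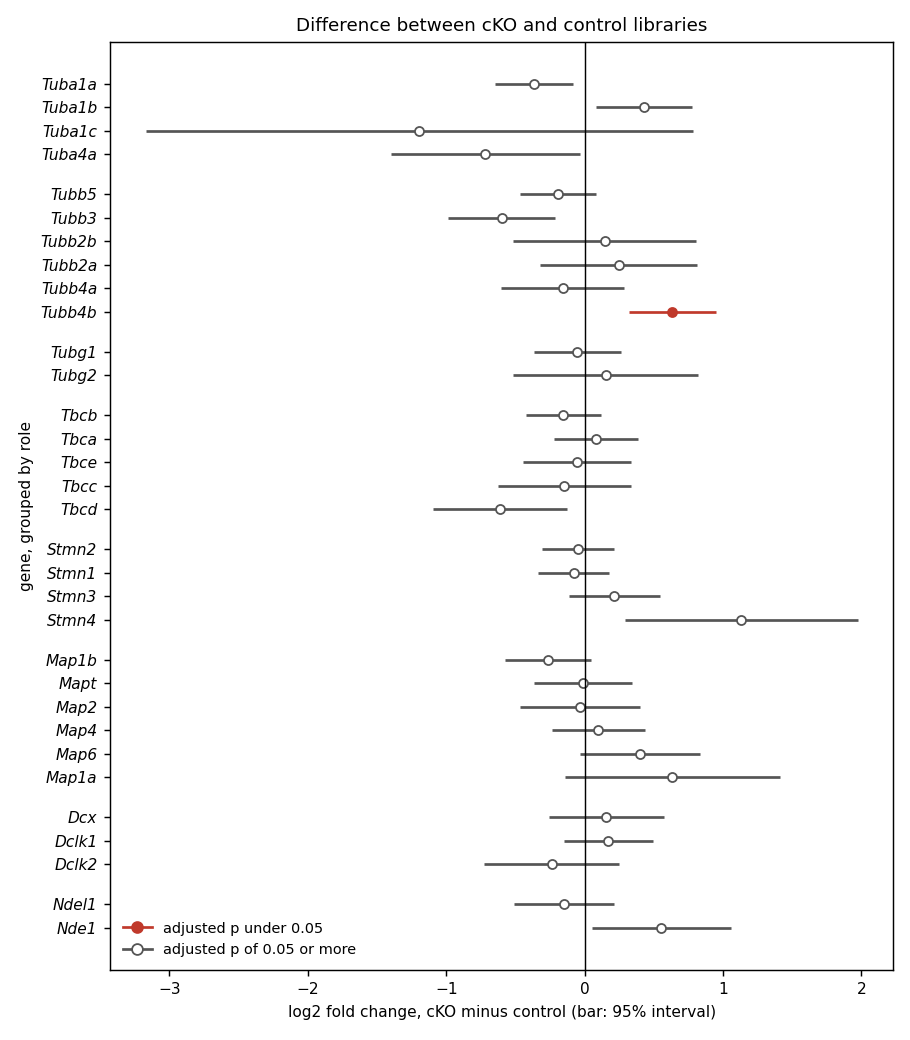
Log2 fold change, cKO minus control (x axis, positive is higher in cKO), with its 95% confidence interval from edgeR's quasi-likelihood fit for the 32 genes tested (y axis, grouped by role). Tubb4b, filled red, is the 1 gene with an adjusted p under 0.05; Tuba1c has the widest interval, -3.17 to 0.78.

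The make-up of the tubulin pool was also expressed as each isotype's share of all α- or β-tubulin reads per kilobase, which does not depend on how a library was scaled. Reads from shared stretches were left out here too, so the size of a share is uncertain where isotypes hold much shared sequence. No test was made on these shares, and since they add up within a library they are not independent of one another. No rate over all genes can be set beside them, since such shares exist for tubulins only. In CPM, Tuba1b, Tubb3 and Tubb6 overlapped between the genotypes. Tubb4b lay above all controls in CPM too, as did 3.32% of all genes tested. Tuba1a held 95.8% to 97.9% of the α-tubulin reads per kilobase in controls and 94.4% to 97.2% in cKO. The share of Tuba1b was 2.43%, 4.96% and 3.15% in cKO and 1.64% to 2.17% (median 2.07%) in controls, without overlap. Among β-tubulins, Tubb3 held 34.5%, 29.9% and 35.9% in cKO and 38.6% to 45.1% (median 42.8%) in controls. Every cKO library was below every control. Tubb4b held 3.20%, 4.45% and 3.93% in cKO against 1.69% to 2.70% (median 2.04%) in controls, again without overlap and in the other direction. Tubb6, whose share rests on few reads, held 0.0552% to 0.0964% in cKO against 0 to 0.0386% in controls, also without overlap. Tubb5 held 35.9% to 51.7% in cKO and 38.1% to 45.2% in controls, Tubb2a 5.72% to 10.8% and 4.90% to 6.65%, Tubb2b 4.28% to 10.5% and 4.21% to 6.10%, and Tubb4a 3.45% to 5.00% and 3.90% to 4.38%, all of them overlapping.

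**Figure D4:**
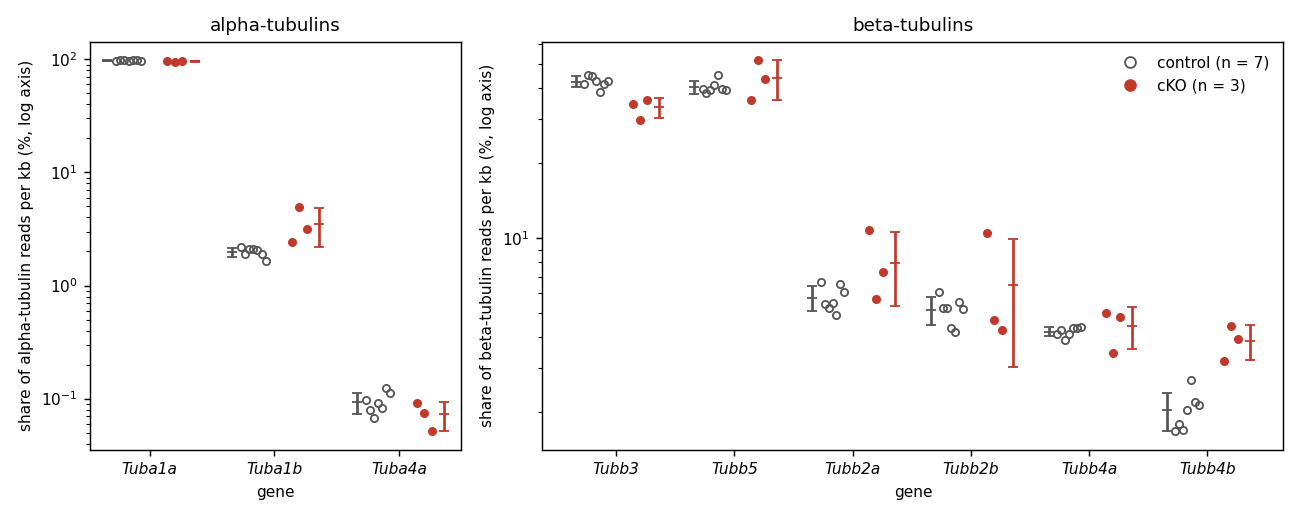
Share of all α-tubulin (left) or β-tubulin (right) reads per kilobase held by single isotypes, in percent on a log axis (y axis); open grey circles are the 7 controls, filled red circles the 3 cKO libraries, and bars are mean ± SD. Tubb3 lies at 29.9% to 35.9% in cKO and 38.6% to 45.1% in controls, and Tuba1b and Tubb4b lie higher in every cKO library than in any control, as does Tubb6, which is not drawn because its share was 0 in 1 control. In CPM, Tubb3, Tuba1b and Tubb6 overlapped between the genotypes.

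Both γ-tubulins, which sit in the nucleating ring, had values that overlapped between genotypes. Tubg1 (chromosome 11, 101119938 to 101126419), the more abundant per kilobase, had 180, 146 and 136 CPM in cKO and 140 to 183 CPM (median 154) in controls. Its log2 fold change was -0.05 (SE 0.15, 95% confidence interval -0.37 to 0.26, edgeR adjusted p = 0.904). Tubg2 had 62.7 CPM in cKO replicate 1, above all other libraries, and 20.5 and 22.9 CPM in the other 2, below all controls (25.3 to 48.9 CPM). Its log2 fold change of 0.15 turned to -0.60 without cKO replicate 1.

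Of the 5 folding cofactors 0 passed the test. Tbcd (chromosome 11, 121451949 to 121617164), which takes up β-tubulin before it is paired, had 26.3, 36.6 and 44.1 CPM in cKO and 37.3 to 67.1 CPM (median 51.8) in controls. Replicates 1 and 2 of the cKO lay below every control, and the log2 fold change was -0.61 (SE 0.23, unadjusted p = 0.0160, edgeR adjusted p = 0.176). Tbcb (chromosome 7, 30224131 to 30232272), which handles α-tubulin and was the most abundant cofactor per kilobase, had 456, 342 and 434 CPM in cKO and 404 to 494 CPM (median 466) in controls, with a log2 fold change of -0.15 (SE 0.13, 95% confidence interval -0.43 to 0.12, edgeR adjusted p = 0.620). For Tbca, Tbcc and Tbce the log2 fold changes were 0.09, -0.15 and -0.06.

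Stmn1 and Stmn2 had the smallest SEs of all members, at 0.12 each. Stmn1, the stathmin of progenitors and young neurons, had 1482, 1261 and 1588 CPM in cKO and 1330 to 1762 CPM in controls, and Stmn2, the neuronal growth cone stathmin, had 1982, 1868 and 2348 CPM in cKO and 1929 to 2650 CPM in controls. Both ranges overlapped, and the 95% confidence intervals of the log2 fold changes, -0.34 to 0.18 and -0.31 to 0.22, did not reach -0.5 or 0.5. Stmn3 (chromosome 2, 181306459 to 181314500) had 1489, 1049 and 1528 CPM in cKO and 930 to 1555 CPM (median 1176) in controls, a log2 fold change of 0.21 (SE 0.16, edgeR adjusted p = 0.553). Stmn4 (chromosome 14, 66344296 to 66361680), a stathmin restricted to the nervous system, had 593 CPM in cKO replicate 1 but 89.4 and 140 CPM in the other cKO libraries, which lay among the controls (83.7 to 190 CPM, median 115). Its log2 fold change of 1.13 (SE 0.40, unadjusted p = 0.0112, edgeR adjusted p = 0.149) turned to -0.15 (adjusted p = 0.859) without that library, and passed without cKO replicate 2, at 1.54 (adjusted p = 0.0205). Summed red blood cell markers were also highest in cKO replicate 1, at 2301 CPM against 0.360 to 1817 CPM in controls, as were the immediate early genes given above, and their part in the level of Stmn4 was not tested.

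The structural MAPs had 0 calls among 6. Map1b (chromosome 13, 99421446 to 99516540), the first MAP to appear in growing axons and the most abundant of the group, had 2920, 2137 and 2143 CPM in cKO and 2410 to 3746 CPM (median 2788) in controls. Replicates 2 and 3 of the cKO lay below all controls and replicate 1 inside their range, with a log2 fold change of -0.27 (SE 0.15, unadjusted p = 0.0877, edgeR adjusted p = 0.392). Mapt, which encodes the axonal protein tau, had 1629, 947 and 870 CPM in cKO and 952 to 1334 CPM in controls. Here the cKO libraries lay on both sides of the control range, and the log2 fold change was -0.01 (95% confidence interval -0.37 to 0.34), running from -0.36 to 0.15 with libraries left out in turn. Map2, the dendritic MAP, had 332, 370 and 245 CPM in cKO and 219 to 423 CPM in controls (-0.03, interval -0.47 to 0.40), and Map4, which is found in most cells, 88.7, 115 and 94.2 CPM against 78.8 to 107 CPM (0.10, interval -0.24 to 0.43). For Map6, known for making microtubules cold-stable, and Map1a, a MAP of mature neurons, the values were 0.40 and 0.63 (edgeR adjusted p = 0.355 and 0.422), and that of Map1a was 0.054 without cKO replicate 1.

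Doublecortin (Dcx, ENSMUSG00000031285.14, chromosome X, 143855842 to 143933311), which marks migrating neurons, had 483, 743 and 374 CPM in cKO and 372 to 637 CPM (median 435) in controls. The log2 fold change of 0.16 (SE 0.20, 95% confidence interval -0.26 to 0.57, edgeR adjusted p = 0.763) turned to -0.17 without cKO replicate 2, the highest of the 10 libraries. Dclk1 and Dclk2, its kinase-bearing relatives, had log2 fold changes of 0.17 (adjusted p = 0.648) and -0.24 (adjusted p = 0.679).

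Nde1 (chromosome 16, 14163275 to 14192928) and Ndel1 (chromosome 11, 68821434 to 68871858) encode partners of LIS1 and dynein, Nde1 acting in progenitor mitosis and Ndel1 mainly in neurons. Nde1 had 31.0, 63.8 and 72.6 CPM in cKO and 31.2 to 49.5 CPM (median 37.0) in controls. Replicates 2 and 3 of the cKO were above all controls and replicate 1 below them, with a log2 fold change of 0.55 (SE 0.24, unadjusted p = 0.0328, edgeR adjusted p = 0.249). Without cKO replicate 1 Nde1 passed, at 0.86 (adjusted p = 0.0258), and without cKO replicate 3 it stood at 0.32 (adjusted p = 0.583). Among the libraries with the smaller and the larger share of reads outside genes it was higher in cKO by 0.99 and 0.16 on the log2(CPM + 1) scale. Ndel1 had 87.4, 68.5 and 101 CPM in cKO and 81.0 to 121 CPM (median 93.3) in controls, with replicate 7 apart at the top, a log2 fold change of -0.15 (SE 0.17, edgeR adjusted p = 0.737).

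Many members also differed between libraries of the same genotype. Of the 10 libraries, cKO replicate 2 was the lowest in 13 of the 32 members, and cKO replicate 1 and control replicate 1 were each the highest in 8. Within controls alone, 5 of the 6 β-tubulins tested (Tubb2a, Tubb2b, Tubb3, Tubb4a and Tubb5) were lower in each of the 3 libraries with the larger share of reads outside genes than in any of the other 4, as were 8 of the 32 members and 6.54% of all genes. Tubb3 had 3369 to 4192 CPM in the former and 4692 to 5915 CPM in the latter. The opposite order held for 3 of the 32 members, Dcx, Dclk1 and Dclk2, a share near the 9.00% of all genes, so it is not a result about the members. Dcx had 540 to 637 CPM in the 3 controls with the larger share and 372 to 435 CPM in the other 4. Tubb3 was lower in cKO within both sets, by a difference of -0.64 and -0.49 on the log2(CPM + 1) scale, whereas Tubb2b differed by -0.75 in one and 0.51 in the other.

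**Figure D5:**
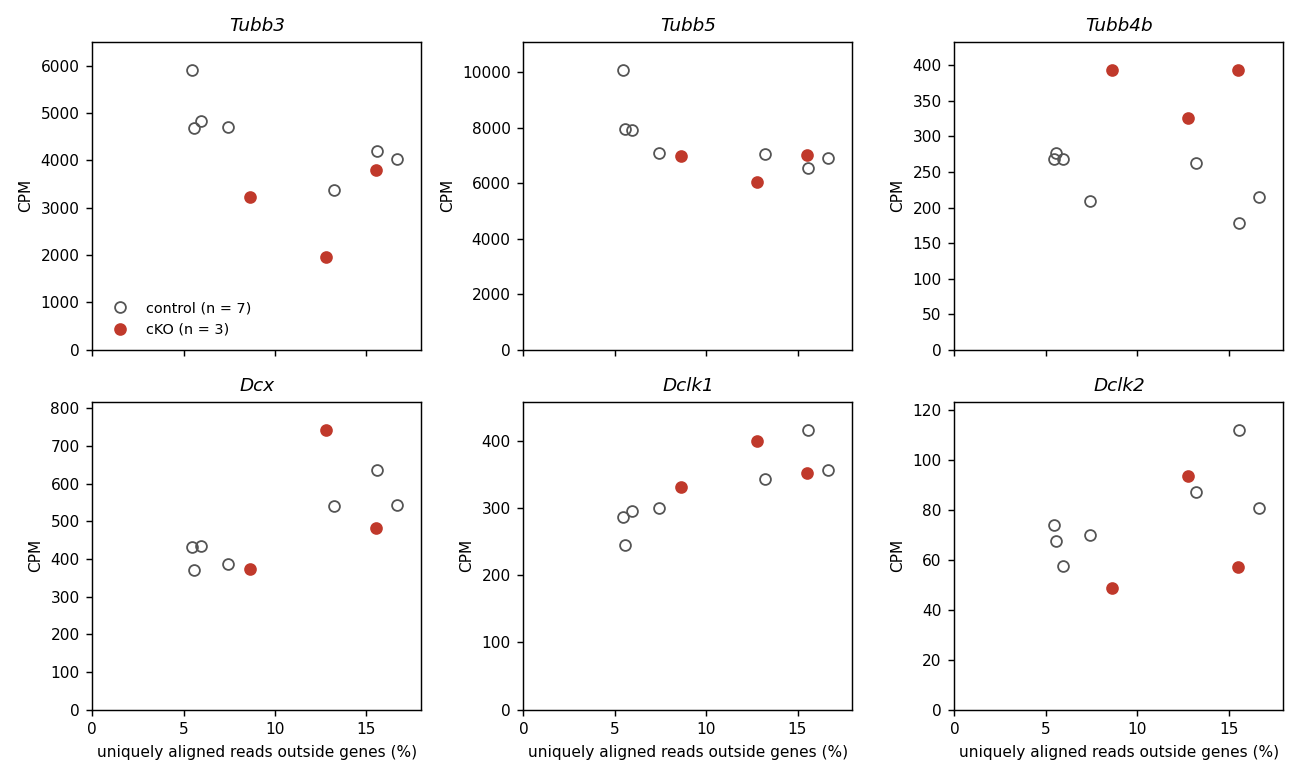
CPM (y axes, from 0) of Tubb3, Tubb5, Tubb4b, Dcx, Dclk1 and Dclk2 in each library against the percentage of uniquely aligned reads outside genes (x axes). Open grey circles are controls and filled red circles cKO; Tubb3 and Tubb5 lie lower, and the 3 doublecortin genes higher, in the controls at 13.2% to 16.7% than in those at 5.47% to 7.44%.

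Among 139 other microtubule genes in 9 lists, 128 were tested, 3 were higher in cKO and 0 lower (2.27% and 0.883% of all genes, respectively), and their median log2 fold change was 0.00. Of these 3, Cdk5r2 reached the minimum of reads only through cKO replicate 1. The lists of transport kinesins (16 tested), dynein, dynactin and LIS1 (21), end-binding proteins (13), nucleation factors (17), tubulin-modifying enzymes (14) and the chaperonin CCT with prefoldin (14) each held 0 calls. The chaperonin list, which folds new tubulin and actin, was the most closely measured, with all 14 confidence intervals within -1 to 1 and a median of -0.11.

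The list of severing and depolymerising proteins held 1 call among 10, Kif2c, a kinesin that removes tubulin from microtubule ends during mitosis. It had 24.3, 35.1 and 22.1 CPM in cKO and 7.46 to 15.6 CPM (median 13.3) in controls, without overlap, and a log2 fold change of 1.15 (SE 0.28, edgeR adjusted p = 0.0308). Among 10 other microtubule-associated proteins 1 passed, the tubulin polymerisation-promoting protein Tppp3, with 63.7, 16.2 and 21.2 CPM in cKO and 3.89 to 19.1 CPM (median 5.81) in controls. Its cKO replicate 2 lay inside the control range, and the log2 fold change was 1.99 (SE 0.46, edgeR adjusted p = 0.0216). Among 13 kinases and their activators 1 passed, Cdk5r2, an activator of the neuronal kinase CDK5, with 55, 10 and 10 reads in cKO and 2 to 10 reads in controls. Its log2 fold change was 2.06 (SE 0.51, edgeR adjusted p = 0.0310), but it reached the minimum mean of 10 reads only through cKO replicate 1, so its call is no independent support for a difference.

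Each of these calls rested on single libraries. Kif2c passed in 6 of the 10 fits with 1 library left out, and did not pass without cKO replicate 2 (0.91, adjusted p = 0.126) or without control replicate 2, 4 or 5 (1.07, 1.04 and 1.11, adjusted p = 0.0708, 0.0676 and 0.0578). Tppp3 passed in 8 of 10, and did not pass without cKO replicate 1 (1.08, adjusted p = 0.265) or control replicate 3 (1.85, adjusted p = 0.0522). Cdk5r2 passed in 4 of the 9 fits that tested it, fell below the minimum of reads without cKO replicate 1, and had an adjusted p of 0.0544 to 0.0709 without control replicate 1, 3, 4, 5 or 7, at 1.95 to 2.09.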

How the data were processed

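RNA was sequenced with the Smart-Seq2 protocol from 10 libraries of 400 sorted cells (3 cKO, 7 control). The authors aligned reads to GRCm38 with STAR 2.5.0c, kept reads with 1 alignment and deposited raw counts per GENCODE M16 gene, which were used without regard to strand. Reads over 2 genes were left out, and reads are not independent molecules, since no molecular identifiers were described. Symbols came from GENCODE M21 of the same build, for 53274 of 53379 genes. The comparison used edgeR 4.0.16 (TMM, glmQLFit, glmQLFTest) in R 4.3.3 on genes that averaged 10 reads or more, with Benjamini-Hochberg adjustment over all 11551 genes and a threshold of 0.05. SE and confidence intervals (95%) come from the quasi-likelihood fit; fold changes and adjusted p are from edgeR unless another tool is named. DESeq2 1.42.0 and limma 3.58.1 were alternatives. Coding sequences were aligned with MAFFT 7.526, and figures were drawn with matplotlib 3.10.9. Words of 50 bases were counted on either strand; the read length is not given in the sources used here.

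The members and lists were chosen with earlier results of these data known. Values are given in full for members with an adjusted p under 0.05, the 4 members with the smallest p in each direction and the most abundant member per kilobase in each role, and for genes of the other lists with an adjusted p under 0.05. Values of further members, such as Tuba1c and Tubb6, were described after they had been seen. Embryos of 1 genotype were the replicates. The coding ends of the α-tubulins are not reported here.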

Additional observations from a re-analysis of the deposited data

Results flagged for a closer look

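Among the 7 controls, a single library stood apart from the others in 3 of the 32 members tested, where the gap to the nearest library took up more of the range than Dixon's 95% critical value for 7 samples allows. Control replicate 1 was far above the other controls in Tubb5 (10087 CPM, against 7952 CPM in the next) and in Tuba1b (333 CPM, against 253 CPM). Control replicate 7 was far above the others in Ndel1, at 121 CPM against 96.7 CPM. Chance flags about 1 in 20 groups, and 36 genes were checked. The 5 members with too few reads to be tested were not among them. One of these, Tubb6, had 5.69 CPM in control replicate 7 and at most 1.08 CPM in the other controls.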

How the results depend on the processing

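The count of members with an adjusted p under 0.05 stayed at 1, Tubb4b, with DESeq2, limma-voom, DESeq2 size factors, robust dispersion, the sum of the strand-specific counts and the reads outside genes as a covariate. Over all genes, from 297 (limma-voom) to 510 (DESeq2) passed under these settings. The count was 6 of 37 with no filter on low counts (Tubb4b, Stmn4 and Tubb6 higher, Tubb3, Tuba1a and Tuba1c lower), against 961 of 26537 genes. With no filter the SEs of Tuba1c and Stmn4 fell from 0.94 and 0.40 to 0.24 and 0.18. Those of Tuba1a and Tubb3 fell from 0.13 and 0.18 to 0.063 and 0.086. The spread of their libraries was the same, so these calls are no support for a difference. With filterByExpr it was 2 of 33, where Tubb6 was the other gene, against 400 of 12299 genes. With each library left out in turn the count ran from 0 (without cKO replicate 3) to 3 (without cKO replicate 1: Tubb3, Tuba1b and Nde1, not Tubb4b). Over all genes these 2 fits called 271 of 11548 and 334 of 11440. Tubb6 also passed without any 1 of control replicates 1 to 6. It entered the test under filterByExpr through its cKO counts, and in the fits that left out a control because its mean then reached 10 reads, so these calls support nothing.

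The count of other microtubule genes, 3 in the report, was 6 of 128 with DESeq2 (Dync1i1, Vash2 and Svbp lower besides), against 510 of 11551 genes. With no filter it was 6 of 138, against 961 of 26537 genes. It was 2 with limma-voom and with the reads outside genes as a covariate, where Cdk5r2 did not pass (adjusted p = 0.138 and 0.0573). With libraries left out it was 1 to 3, and not always of the same genes. Kif18a was higher without cKO replicate 1 (1.35, edgeR adjusted p = 0.0412). Dync1i1 was lower without control replicate 5 (-0.80, edgeR adjusted p = 0.0148). The log2 fold change of Cdkn1c ran from -4.07 to -3.37 with libraries left out and kept its call under every alternative run.

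Replicate numbers did not pair the libraries (r of deviations 0.041, -0.10 and -0.21 for numbers 1 to 3). With a replicate block 1 member passed, Tuba1c at 1.75, and 1 other gene, Tppp3, but not Kif2c or Cdk5r2 (adjusted p = 0.341 and 0.236); Tubb4b was at 0.78 (adjusted p = 0.117) and Cdkn1c at -3.59.

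With libraries left out in turn, log2 fold changes ran across 0 in 13 of the 32 members tested: Stmn4 (-0.15 to 1.54), Tubb2b (-0.69 to 0.45), Tubb2a (-0.29 to 0.55), Tubg2 (-0.60 to 0.42), Tubb4a (-0.46 to 0.12), Dcx (-0.17 to 0.36), Mapt (-0.36 to 0.15), Tbce (-0.25 to 0.080), Map2 (-0.17 to 0.12), Tbca (-0.031 to 0.17), Map4 (-0.032 to 0.17), Tubg1 (-0.19 to 0.027) and Stmn2 (-0.15 to 0.010). Others kept their sign but moved by over 1.5 times: Tuba1c (-1.42 to -0.43), Dclk1 (0.079 to 0.24), Dclk2 (-0.57 to -0.066), Stmn1 (-0.15 to -0.0031), Stmn3 (0.12 to 0.36), Map1a (0.054 to 0.91), Map1b (-0.44 to -0.19), Map6 (0.24 to 0.56), Ndel1 (-0.28 to -0.026), Tbcb (-0.24 to -0.049), Tbcc (-0.20 to -0.0069) and Tubb5 (-0.24 to -0.12), besides Tubb3, Tuba1b and Nde1, given in the report. Among the libraries with fewer reads outside genes, which hold 1 cKO library, the sign differed from that of the whole comparison in 8 members: Tubb2b (-0.75), Tubg2 (-0.68), Tubb2a (-0.14), Stmn4 (-0.13), Dcx (-0.12), Ndel1 (0.076), Stmn2 (0.13) and Tuba1c (0.36). Among those with more, which hold 2, it differed in 5: Tbca (-0.024), Tuba1c (0.040), Tbcc (0.092), Tubg1 (0.14) and Mapt (0.15). The causes were not tested. With 3 cKO embryos the median SE over all genes tested was 0.27 on the log2 scale, which limits how small a difference could be called.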
